A study of Homo sapiens with 16 samples.

Results

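Genes for the proteins of the cytosolic ribosome were followed on 16 whole-transcript arrays of A498 cells, a line derived from human clear cell renal cell carcinoma (ccRCC). Members were the genes whose symbol began with RPL or RPS followed by a number and at most 1 of the letters A, X or L, together with RPLP0, RPLP1, RPLP2 and RPSA where these had a probe set. Pseudogenes were excluded, and only probe sets with exactly 1 gene symbol were used, the brightest for each gene. This gave 51 members among the 22411 genes measured, of which 27 belong to the large (60S) subunit, 20 to the small (40S) subunit and 4 are paralogs (RPL3L, RPL10L, RPL39L and RPS27L). The list of canonical ribosomal proteins held 77 symbols, 46 large and 31 small, and 47 of them were members. Of the other 30, 21 lay only on probe sets that carry several symbols and 9, RPLP0 and RPSA among them, were not analysed here.

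Short hairpin RNAs that doxycycline switches on, directed at DGAT1 and DGAT2, were carried by all cells. The targets are the enzymes that add the last fatty acid in triglyceride synthesis. All cells were kept in low serum. Vehicle or doxycycline was given for 5 days, and normoxia or hypoxia (0.5% O2) was applied for 2 days before RNA was collected. The 4 groups were vehicle with normoxia, vehicle with hypoxia, doxycycline with normoxia and doxycycline with hypoxia, with 4 arrays in each, labelled as biological repeats. The design asks how loss of DGAT and loss of oxygen, alone and combined, alter the transcripts of the cells. Doxycycline arrays differ from vehicle arrays by the drug as well as by the hairpins, and these cannot be told apart because the labels hold no cells with the drug but without the hairpins. In bulk RNA such as this, less RNA of a gene per cell and fewer cells that express it cannot be told apart either. Where nothing says that repeats came from separate cultures, p-values measure the spread between these arrays.

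The ribosome is built in the nucleolus from ribosomal RNA and a single copy of most ribosomal proteins, and an excess of free ribosomal protein is degraded. The genes are among the most strongly expressed in dividing cells. Most of their mRNAs begin with a cytosine followed by an unbroken run of pyrimidines, the terminal oligopyrimidine (TOP) motif, through which mTORC1 and LARP1 set how well they are translated. Arrays measure the amount of such an mRNA and not its translation.

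The starts of the transcripts are shown because this feature unites the family and was not used to choose it. RefSeq promoter windows (GRCh38.p14, 250 bases before and 50 after the annotated start) were matched for 44 of the 51 members, and each sequence below runs 5′ to 3′ from 10 bases before the start into the first 20 bases of exon 1. Capitals mark the run of C and T that begins at the start with a C, where at least 4 further C or T follow it. The first 4 genes fell in doxycycline with hypoxia against vehicle with normoxia, and the other 5 were not past the threshold in that comparison. RPS24 was added after its values were seen.
RPL24, chr3:101686699-101686728, minus strand: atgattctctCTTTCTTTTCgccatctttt
RPL35, chr9:124861938-124861967, minus strand: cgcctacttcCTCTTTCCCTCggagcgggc
RPS25, chr11:119018324-119018353, minus strand: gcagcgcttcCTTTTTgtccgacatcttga
RPS18, chr6:33272065-33272094, plus strand: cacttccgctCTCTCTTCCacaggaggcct
RPS24, chr10:78033853-78033882, plus strand: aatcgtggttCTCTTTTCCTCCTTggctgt
RPS27, chr1:153990752-153990781, plus strand: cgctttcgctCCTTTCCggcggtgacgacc
RPS15, chr19:1438386-1438415, plus strand: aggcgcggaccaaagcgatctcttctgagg
RPS27L, chr15:63157458-63157487, minus strand: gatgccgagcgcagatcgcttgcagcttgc
RPL10L, chr14:46651762-46651791, minus strand: gtagttaagagagcgcattttgacttcgag

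A start of this kind was found in 32 of the 44 members (72.7%), against 5.14% of the 27305 genes with a window. The hexamer CCGGAA, which holds the core bound by ETS factors, was found on either strand of the whole window in 26 members (59.1%) and in 20.1% of all genes. TATAAA, the TATA box, was found on either strand in 3 members (6.82%) and 14% of all genes, and CACGTG, the E-box that MYC and MAX bind, in 3 members (6.82%) and 8.77% of all genes. A gene with several windows was counted once if any of them held the letters. The run of pyrimidines was 14 bases long in RPS24 and 6 bases in RPS25. RPS27L and RPL10L, the latter a copy without introns that is expressed mainly in testis, lacked it. These matches describe the letters only.

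Signals of the members lay high in the range of the arrays. Deposited values are on a log2 scale and ran from 1.71 to 19.85 over all probe sets. The median of the members' mean signals was 10.30 against 4.89 over all genes, and 49 of 51 members were above the latter. These signals are properties of probe sets and do not rank the genes by transcript number. Of all genes, 258 (1.15%) had a mean above 14, and 11 members (21.6%) were among them. The mean was above 16, the log2 of the largest value a 16-bit scanner can write, for 53 genes, 5 of them members (RPS15, RPL19, RPL26, RPS28 and RPS16). The 3 brightest were RPS15 at 17.54, RPL19 at 17.04 and RPL26 at 16.47, each above 16 on all 16 arrays. The dimmest were RPL10L at 2.66, RPL3L at 4.03 and RPL31 at 6.32. RPL3L, whose product replaces RPL3 in skeletal and heart muscle, and RPL10L were thus below the median signal of all genes.

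Calls were also made at the top of the range. RPL19 and RPS16 were lower with adjusted p under 0.05 in doxycycline with hypoxia against vehicle with normoxia, and RPS15, RPL26 and RPS28 were not past the threshold. Over all 53 genes above 16, 26.4% were lower and 0% higher in that comparison, with a median absolute log2 difference of 0.17, against 28.8% and 15.6% with a median of 0.27 for the 205 genes between 14 and 16. Whether the values above 16 are compressed was not tested.

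**Figure D1:**
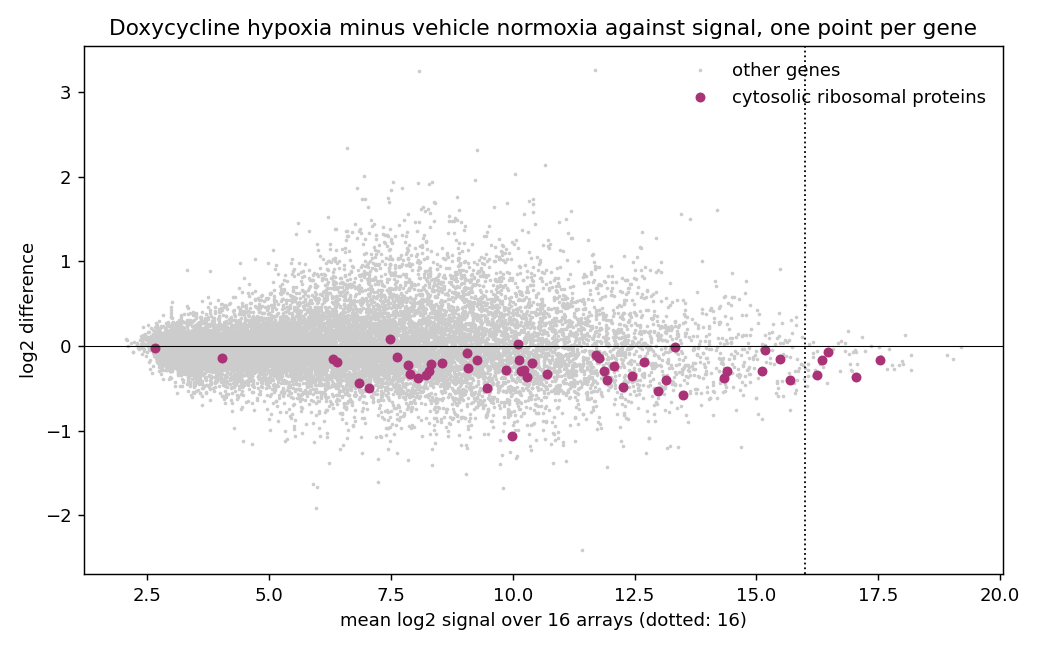
Each point is a gene, with its mean log2 signal over 16 arrays on the horizontal axis and the log2 difference of doxycycline hypoxia minus vehicle normoxia (4 arrays each) on the vertical axis. The 51 ribosomal protein genes (purple) spread from 2.66 to 17.54 in signal, and 49 of them lie below 0.

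The cells and labels were checked on the same arrays. DGAT1 signal was 6.24 to 6.99 on vehicle arrays and 5.04 to 5.28 on doxycycline arrays, and DGAT2 signal was 6.26 to 7.18 and 5.06 to 5.44, so neither overlapped. Of the markers of kidney carcinoma cells, PAX8, KRT8 (14.09 to 15.15), KRT18, VIM and CDH2 were bright on every array and PAX2 was at 5.71 to 6.22. PTPRC, CD3E, PECAM1, CDH5 and VWF, which define leukocytes and endothelium, were between 2.80 and 4.32, while CD68, also expressed outside macrophages, was at 11.55 to 12.68. A single array stood apart. On vehicle hypoxia replicate 4, 46 of the 51 members lay below the mean of their own group, with a median deviation of -0.21, against -0.06 over all genes. On the other 15 arrays the median deviation of the members ran from -0.07 to 0.10. Doxycycline hypoxia replicate 4 was at 0.10, with 6 members below the mean of its group. The strongest single pattern across arrays held 63.3% of the variance within groups over all genes, and 67.7% in the members alone. Vehicle hypoxia replicate 4 was singled out after these values were seen. For each comparison, the count of members past the threshold, and differences of members that use this array, are given with and without it. Other counts, such as those by group order, start site or unadjusted p, are given with all arrays only. The part of this array in them was otherwise not tested.

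Ribosomal protein transcripts were lowest where both factors were combined. The median member signal, in order of replicates 1 to 4, was 10.54, 10.44, 10.50 and 10.55 in vehicle normoxia and 10.40, 10.49, 10.45 and 10.05 in vehicle hypoxia. With doxycycline it was 10.27, 10.39, 10.35 and 10.28 in normoxia and 10.18, 10.20, 10.11 and 10.24 in hypoxia. The SD of this median within groups was 0.11 when pooled and 0.20 in vehicle hypoxia. Median differences of the members given below are descriptions, to be read beside this spread, and were not tested. The doxycycline hypoxia arrays lay below all vehicle normoxia arrays, and vehicle hypoxia replicate 4 lay below all of them, while the other 3 arrays of its group were at 10.40 or above. The mean signal was lowest in doxycycline hypoxia for 42 of the 51 members (82.4%) and for 29.5% of all genes. It was highest in vehicle normoxia for 43 members (84.3%) and for 42.4% of all genes. No member had its lowest mean in vehicle normoxia or its highest in doxycycline hypoxia.

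**Figure D2:**
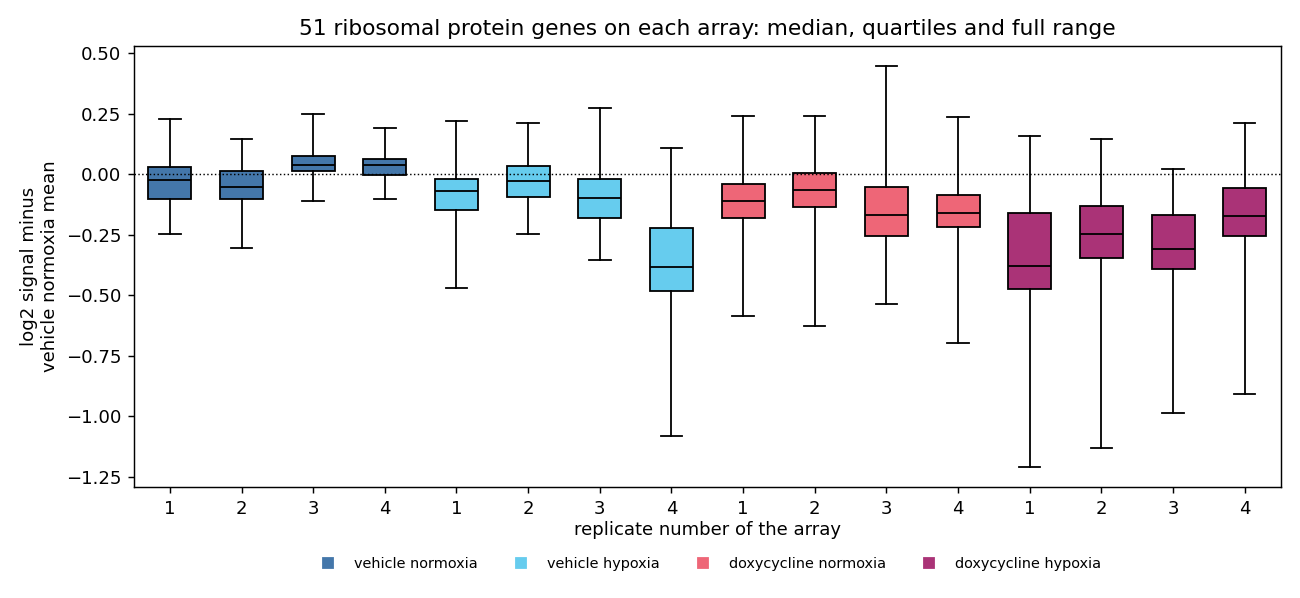
Boxes show, for each of the 16 arrays, the log2 signal of the 51 ribosomal protein genes minus their vehicle normoxia mean (line: median, box: quartiles, whiskers: lowest and highest). The medians run from -0.38 to -0.17 on the doxycycline hypoxia arrays and from -0.17 to -0.07 on the doxycycline normoxia arrays. On vehicle hypoxia replicate 4 the median is -0.38, and on the rest of its group it runs from -0.10 to -0.03.

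In doxycycline with hypoxia against vehicle with normoxia, 23 of 51 members (45.1%) fell and 0 rose at an adjusted p under 0.05 (limma, Benjamini-Hochberg over 22411 genes), against 13.6% of all genes lower and 7.67% higher. The share of all genes called lower here was higher among brighter genes. It was 5.4% under a mean signal of 4, 18.9% from 6 to 8 and 28.8% from 14 to 16. Only 2 members had a mean signal under 6, so 13.6% is a low standard for most of them. The median log2 difference of the members was -0.28, against -0.04 over all genes, and 49 of 51 differences were below 0, against 61.6% of all genes. On the doxycycline hypoxia arrays 31 of 51 members were lower than on any vehicle normoxia array, against 16.7% of all genes. Both subunits took part, with 13 of 27 large-subunit members (median -0.26), 9 of 20 small-subunit members (median -0.29) and 1 of 4 paralogs called lower. The arrays compared here differ by 2 factors, and each difference is by construction the sum of the doxycycline difference in normoxia and the hypoxia difference with doxycycline. Of the 23 calls, 15 held with each array left out in turn, and 14 held under all 27 alternatives tried. The count was 34 without vehicle hypoxia replicate 4, against 17% of all genes lower, and these 34 included the same 23. By subunit it was then 18 of 27 large and 15 of 20 small.

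**Figure D3:**
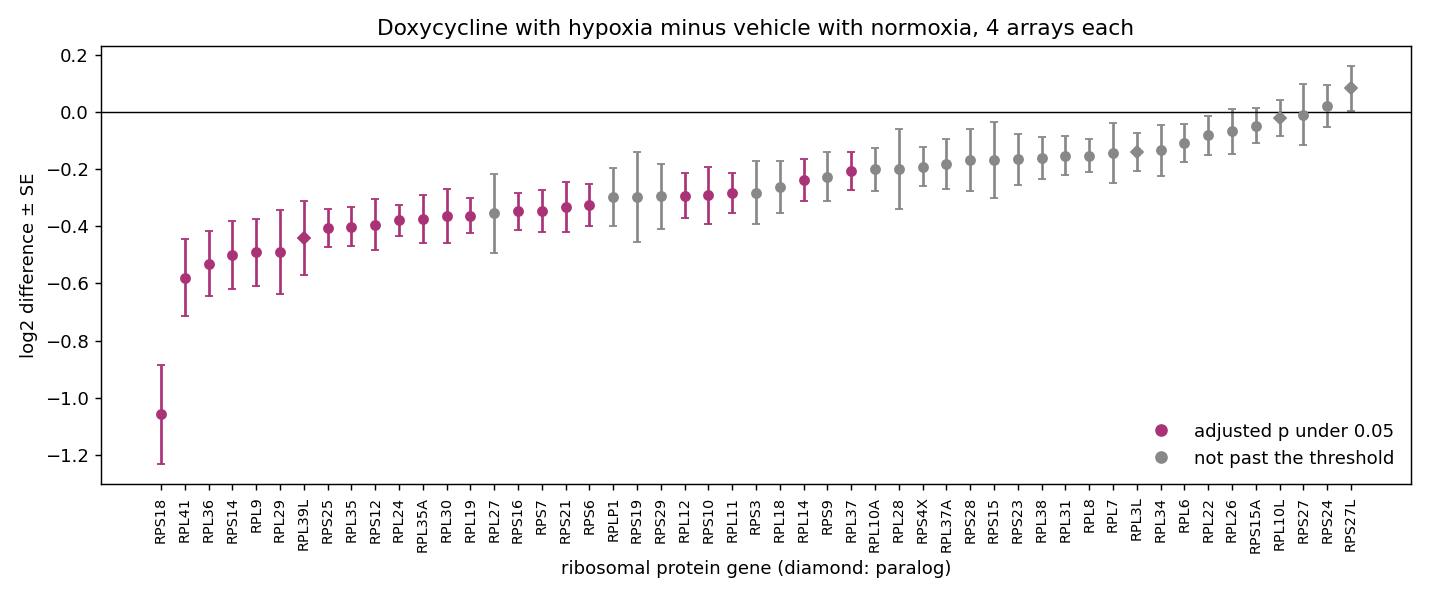
Points are the log2 difference of doxycycline hypoxia minus vehicle normoxia for each of the 51 members with the limma standard error (4 arrays per group), ordered by size, and diamonds are the 4 paralogs. The 23 genes past the threshold (purple) are all below 0, with RPS18 at -1.06.

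RPL24, a large-subunit protein at the face that meets the small subunit, had the smallest p of the members. Its log2 signal was 14.55, 14.53, 14.56 and 14.56 in vehicle normoxia and 14.07, 14.24, 14.15 and 14.21 in doxycycline hypoxia. Doxycycline normoxia, with 14.33, 14.34, 14.30 and 14.34, lay between them, while vehicle hypoxia, with 14.34, 14.36, 14.31 and 14.16, overlapped both doxycycline groups. Every array of the other groups was below every vehicle normoxia array. The combined difference was -0.38 ± 0.05 (SE, n = 4 per group), or 76.9% of the vehicle normoxia level, with adjusted p = 0.000195. It was also the only member called lower by hypoxia with vehicle (-0.26 ± 0.05, adjusted p = 0.0108), a difference of -0.21 without vehicle hypoxia replicate 4 (adjusted p = 0.0188).

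RPS25, a small-subunit protein that several viral internal ribosome entry sites require, was called lower by doxycycline at both oxygen levels, the only member so called with all arrays in the fit. Its signal was 13.32, 13.36, 13.37 and 13.30 in vehicle normoxia and 13.18, 13.11, 13.00 and 13.08 in doxycycline normoxia, without overlap. It was 13.31, 13.31, 13.15 and 13.04 in vehicle hypoxia and 12.93, 12.97, 12.88 and 12.96 in doxycycline hypoxia, again without overlap. The doxycycline difference was -0.25 ± 0.07 in normoxia (adjusted p = 0.0294) and -0.27 ± 0.07 in hypoxia (adjusted p = 0.032), and the combined difference was -0.41 ± 0.07 (adjusted p = 0.000656). Of 27 alternatives, the call was lost in 10 in normoxia (adjusted p up to 0.0985) and in 11 in hypoxia (up to 0.217). Without vehicle hypoxia replicate 4 the difference in hypoxia was -0.32 (adjusted p = 0.00461), and 8 members were then called lower at both oxygen levels.

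RPL35 lies at the exit of the tunnel through which the new protein leaves the large subunit. Signals of 15.80, 15.95, 15.91 and 15.95 in vehicle normoxia stood against 15.66, 15.69, 15.62 and 15.64 in doxycycline normoxia, and the groups did not overlap. Doxycycline hypoxia gave 15.47, 15.51, 15.47 and 15.56, while vehicle hypoxia ran from 15.51 to 15.93 and overlapped every other group. RPL35 fell by 0.25 ± 0.07 with doxycycline in normoxia (adjusted p = 0.0334) and by 0.40 ± 0.07 in the combined comparison (adjusted p = 0.00086). The call in normoxia was lost in 9 of 27 alternatives, with adjusted p up to 0.0919, and the combined call in 0 of 27.

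RPS18, at the head of the small subunit, had the largest difference and also the largest spread within groups (SD 0.26). Vehicle normoxia signals were 10.54, 10.44, 10.43 and 10.63 and doxycycline hypoxia signals 9.30, 9.38, 9.52 and 9.60. Doxycycline normoxia (9.92, 9.88, 10.29 and 9.81) lay between them without overlap. Vehicle hypoxia (10.04, 10.49, 10.16 and 9.43) overlapped all the other groups. The combined difference was -1.06 ± 0.17, or 48.0% of the vehicle normoxia level (adjusted p = 0.000625). RPS18 had 7 probe sets, 6 of them placed by their identifiers on alternate versions of the chromosome 6 region. Of the 7, 5 held identical values with a difference of -0.67, the used one gave -1.06 and the last -0.34, so the size depended on the probe set while all 7 were past the threshold across all probe sets.

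**Figure D4:**
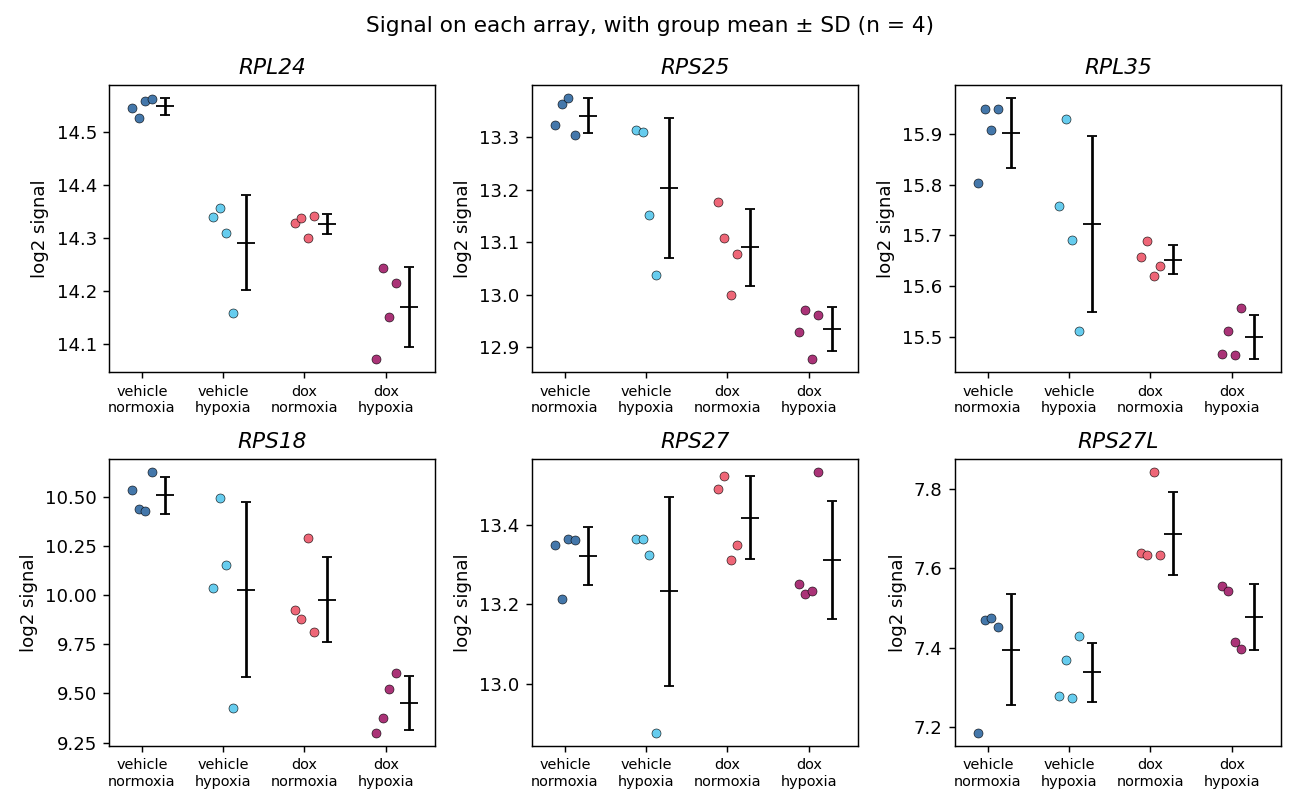
Log2 signal of 6 ribosomal protein genes on each of the 16 arrays (points) with the group mean ± SD (bars, n = 4), on a separate vertical scale for each gene. RPL24, RPS25, RPL35 and RPS18 are lowest in doxycycline hypoxia, RPS27 groups overlap, and RPS27L is highest in doxycycline normoxia.

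RPL41 and RPL36 followed RPS18 in the size of the difference. RPL41, the shortest ribosomal protein, went from 13.73 to 13.97 in vehicle normoxia down to 13.15 to 13.43 in doxycycline hypoxia (-0.58 ± 0.13, adjusted p = 0.00686). RPL36 went from 13.00 to 13.47 down to 12.62 to 12.84 (-0.53 ± 0.11, adjusted p = 0.00439). RPS14, whose loss is part of the 5q- syndrome, and RPL9 were next, at -0.50 ± 0.12 and -0.49 ± 0.12 (adjusted p = 0.0079 and 0.00804), both outside the naming rule. RPL29 differed by -0.49 ± 0.15 (adjusted p = 0.028). The call of RPL29 held with 10 of the 16 arrays left out. RPL39L, a paralog of RPL39 best known from male germ cells, differed by -0.44 ± 0.13 (adjusted p = 0.0249), and its call held with 11 of 16 arrays left out.

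In the rest of the calls the differences were -0.40 or closer to 0. RPS12 (-0.40), RPL35A (-0.37), RPL19 (-0.36), RPS16 and RPS7 (-0.35 each), RPS21 and RPS6 (-0.33 each) and RPL11 (-0.28) had adjusted p from 0.000729 to 0.0141. RPS6 is the small-subunit protein that S6 kinase phosphorylates, RPL35A and RPS7 are among the genes mutated in Diamond-Blackfan anaemia, and RPL11 binds and inhibits MDM2. Also outside the naming rule were RPL30, RPL12, RPS10, RPL14 and RPL37, from -0.36 to -0.21. RPS10 and RPL37 held their call with 4 and 5 of the 16 arrays left out.

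RPS27, RPS24 and RPS15 were not past the threshold in the combined comparison. RPS27 signal was 13.35, 13.21, 13.36 and 13.36 in vehicle normoxia and 13.25, 13.23, 13.23 and 13.53 in doxycycline hypoxia, which overlapped. Its difference was -0.01, with a 95% interval of -0.24 to 0.22. RPS24, another gene mutated in Diamond-Blackfan anaemia, differed by 0.02 (interval -0.13 to 0.17). RPS15, the brightest member, differed by -0.17 ± 0.13 (adjusted p = 0.391). Its standard error was too large to exclude differences of the size called in many other members. RPLP1, an acidic protein of the ribosomal stalk, differed by -0.30 ± 0.10 and missed the threshold (adjusted p = 0.0517). Of the members with a RefSeq window, 17 of the 20 called lower and 15 of the 24 not called had a TOP-like start, a difference that was not tested.

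RPS27L, the paralog of RPS27 and a target of p53, was the only member called higher in any comparison. Its signal was 7.19, 7.47, 7.47 and 7.45 in vehicle normoxia and 7.64, 7.63, 7.84 and 7.63 in doxycycline normoxia, without overlap. The difference was 0.29 ± 0.08 (adjusted p = 0.0313). It was 0.14 ± 0.08 with doxycycline in hypoxia (adjusted p = 0.411), or 0.17 without vehicle hypoxia replicate 4 (adjusted p = 0.255), and whether these differ was tested by the interaction, at -0.15 ± 0.11 (adjusted p = 0.956), or -0.12 without that array. In normoxia the adjusted p became 0.0888 when vehicle normoxia replicate 1 was left out and 0.107 when this was done for doxycycline normoxia replicate 3, and the call also missed the threshold in 3 other leave-one-out fits. RPL10L and RPL3L, the dim paralogs, were past the threshold in no comparison.

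In normoxia, doxycycline lowered 3 members (RPL24, RPS25 and RPL35) and raised 1 (RPS27L), against 4.65% of all genes lower and 4.43% higher. The share of members called lower, 5.88%, was thus near that of all genes. The median difference of the members was -0.13, against -0.02 over all genes, and 45 of 51 were below 0, against 57.2% of all genes. RPL24 fell by 0.22 ± 0.05 (adjusted p = 0.0178). The count depended on single arrays. It was 0 when vehicle normoxia replicate 4 or doxycycline normoxia replicate 3 was left out. Without vehicle hypoxia replicate 4, which enters only through the shared spread, 9 members were lower and 1 higher, against 6.9% and 5.97% of all genes.

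In hypoxia, doxycycline lowered 1 member, RPS25, and raised 0, against 1.99% of all genes lower and 2.67% higher. The members' median was -0.14 against 0.00 over all genes. RPS18 (-0.58 ± 0.17, adjusted p = 0.0764) and RPL35 (-0.22 ± 0.07, adjusted p = 0.0862) came next. Without vehicle hypoxia replicate 4, the array low in these genes, 17 members were called lower and 0 higher, against 4.47% of all genes lower, and the median was -0.21. Because that array was singled out as low in the members, its removal moves these differences down by construction. RPS18 was then at -0.78 (adjusted p = 0.00243) and RPL35 at -0.29 (adjusted p = 0.00562). With all arrays, 15 of 51 members had an unadjusted p under 0.05, against 17.2% of all genes.

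With vehicle, hypoxia lowered 1 member, RPL24, and raised 0, against 4.65% of all genes lower and 2.26% higher. The members' median was -0.12, against -0.05 over all genes, and -0.08 without vehicle hypoxia replicate 4, where the median of all genes was -0.02. RPL41 (-0.43 ± 0.13, adjusted p = 0.0712) and RPS21 (-0.27 ± 0.09, adjusted p = 0.0766) were nearest to the threshold among the rest. RPL41 was 13.51, 13.69, 13.53 and 12.91 in vehicle hypoxia. It was thus farthest from vehicle normoxia on replicate 4, without which the difference was -0.26 (adjusted p = 0.125). That of RPS21 was then -0.20 (adjusted p = 0.19), and RPL24 was still the 1 member called, against 2.8% of all genes lower.

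With doxycycline, hypoxia changed 0 members in limma, against 2.97% of all genes lower and 1.02% higher. An unadjusted p under 0.05 was found for 14 of 51 members, against 15.6% of all genes. The methods' t-test after adjustment called 2 members lower and 2.46% of all genes. The median was nevertheless -0.15, against -0.01 over all genes, and 49 of 51 differences were below 0, against 55.1% of all genes. RPL36 (-0.36 ± 0.11, adjusted p = 0.104), RPS18 (-0.53 ± 0.17, adjusted p = 0.119) and RPL19 (-0.18 ± 0.06, adjusted p = 0.125) had the smallest p. The comparison with doxycycline in normoxia shares its 4 doxycycline normoxia arrays with this one. Without vehicle hypoxia replicate 4, again outside the arrays compared, 6 members were lower, against 4.62% of all genes.

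Whether the doxycycline difference depended on oxygen was tested by the interaction. It was past the threshold for 0 of 51 members and for 0% of all genes, with 1 member and 4.58% of all genes at an unadjusted p under 0.05. The members' median interaction was 0.01, against 0.02 over all genes. Without vehicle hypoxia replicate 4 it was -0.08, against 0.00, again with 0 members past the threshold. RPL26 (-0.24 ± 0.11, 95% interval -0.48 to -0.0014) and RPL8 (0.11 ± 0.08, interval -0.06 to 0.29) had the smallest p, each with adjusted p = 0.956. Without that array they were -0.23 (interval -0.48 to 0.02) and 0.05 (interval -0.08 to 0.19). For RPL24 the interval of the interaction was -0.06 to 0.26 and for RPS18 -0.57 to 0.48 (-0.08 to 0.19 and -0.62 to 0.13 without that array). Differences between the oxygen levels within these intervals were thus not excluded with 4 arrays per group.

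Among genes that build or use the ribosome, most were not called in the combined comparison, where 13.6% of all genes were lower. Of 74 measured ribosome biogenesis genes, 32 (43.2%) fell and 1 (LYAR) rose, with a median of -0.24. RRP7A, which acts in processing of small-subunit ribosomal RNA, differed by -0.73 ± 0.07 (adjusted p = 1.34e-05), and NHP2, a core protein of the H/ACA particles that guide pseudouridylation, by -0.60 ± 0.07 (adjusted p = 6.41e-05). Among 14 genes of the RNA polymerase I machinery, 6 fell and 1 (TAF1B) rose. POLR1E, a subunit of the polymerase, differed by -0.81 ± 0.12 (adjusted p = 0.000213). In the list of 42 cytosolic translation factors 15 (35.7%) fell, led by the initiation factor 3 subunits EIF3K (-0.70 ± 0.09, adjusted p = 8.68e-05) and EIF3D (-0.62 ± 0.09, adjusted p = 0.000313). The 1 gene of that list that rose, NAP1L1, encodes a histone chaperone and no translation factor. In the list of ribosomal proteins outside the symbol rule, 1 of 5 fell, the paralog RPL26L1 (-0.35 ± 0.08, adjusted p = 0.00545), and FAU, which encodes the small-subunit protein eS30 fused to a ubiquitin-like protein, differed by -0.35 ± 0.12 (adjusted p = 0.0549).

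By single factor the counts stood as follows. Hypoxia with vehicle lowered 15 of 74 ribosome biogenesis genes (20.3%) and 3 of 14 polymerase I genes, and 1 of 51 members, beside 4.65% of all genes. Without vehicle hypoxia replicate 4 these counts were 6, 2 and 1, beside 2.8%. Doxycycline in normoxia lowered 4 of the 74, 1 of the 14 and 3 of the 51, shares of 5.41%, 7.14% and 5.88% beside 4.65% of all genes. Without that array these counts were 10, 2 and 9, beside 6.9%. Hypoxia with doxycycline lowered 8, 1 and 0, beside 2.97%, or 13, 1 and 6 without that array, beside 4.62%. Doxycycline in hypoxia lowered 2, 1 and 1, beside 1.99%, or 9, 3 and 17 without that array, beside 4.47%. RRP9, a protein of the U3 particle, differed by -0.55 ± 0.08 in hypoxia with vehicle (adjusted p = 0.0021) and by -0.49 without that array (adjusted p = 0.00526). Mitochondrial ribosomal proteins, a list added after the values were seen, had 36 of 74 members (48.6%) lower in the combined comparison. Hypoxia lowered 12 of them with vehicle and 19 with doxycycline. In these comparisons 13.6%, 4.65% and 2.97% of all genes were lower. Without that array the counts were 43, 5 and 25, beside 17%, 2.8% and 4.62% of all genes. Doxycycline lowered 2 of the list in normoxia and 3 in hypoxia, beside 4.65% and 1.99% of all genes. Without that array these were 4 and 10, beside 6.9% and 4.47%. Whether the shares of these lists differ from that of the cytosolic ribosome was not tested.

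Of 20 genes that signal growth to translation, 5 fell and 2 rose in the combined comparison (13.6% and 7.67% of all genes), with a median of -0.09. MXI1, an antagonist of MYC at E-boxes, rose by 0.67 ± 0.08 (adjusted p = 4.60e-05), and rose with doxycycline in normoxia (0.47 ± 0.08, adjusted p = 0.00162) and in hypoxia (0.58 ± 0.08, adjusted p = 0.000497). MYC fell with doxycycline in normoxia (-0.47 ± 0.13, adjusted p = 0.0303) and was not past the threshold with doxycycline in hypoxia (-0.26, adjusted p = 0.3) or in the combined comparison (-0.30, adjusted p = 0.101), although it passed in both without vehicle hypoxia replicate 4 (adjusted p = 0.0472 and 0.0385). TSC2, an inhibitor of mTORC1, fell in the combined comparison (-0.51 ± 0.11, adjusted p = 0.00338), TSC1, its partner, rose (0.22 ± 0.07, adjusted p = 0.0303), and EEF2K, the kinase that slows elongation, fell (-0.41 ± 0.09, adjusted p = 0.00415). Outside the naming rule, RPS6KB2 (-0.47 ± 0.11, adjusted p = 0.00694), SESN1 (-0.35 ± 0.10, adjusted p = 0.0195) and MLST8 (-0.34 ± 0.11, adjusted p = 0.0412) also fell in that comparison. The genes that passed include activators and inhibitors of translation.

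**Figure D5:**
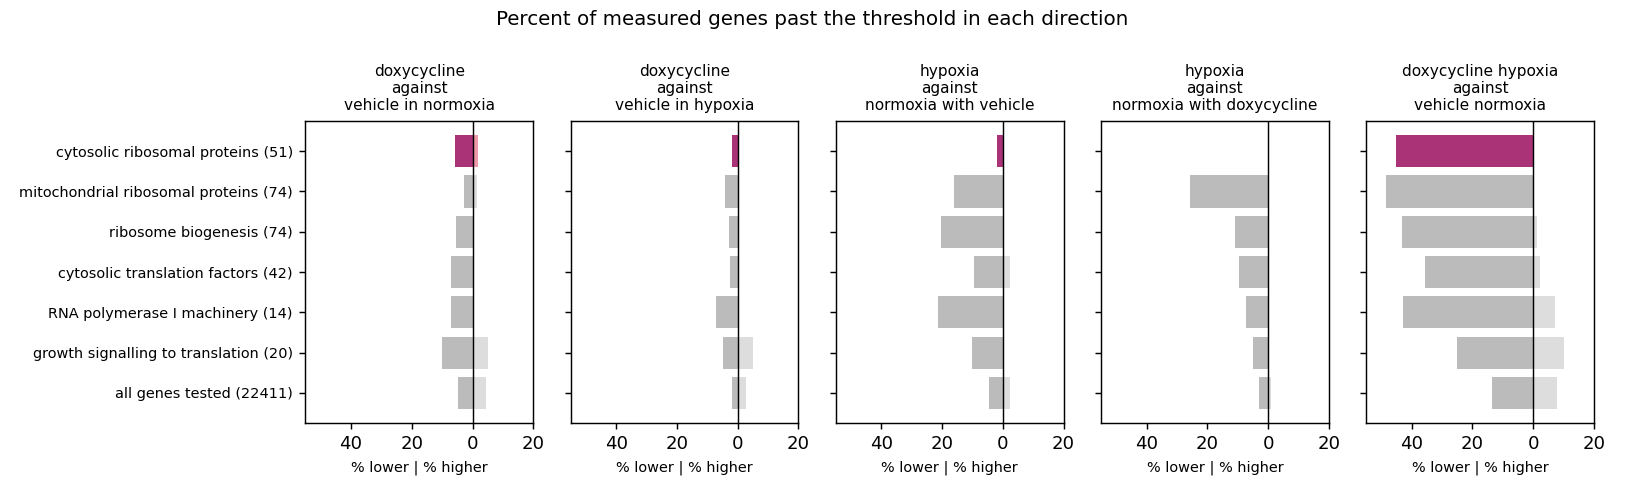
Bars give the percent of measured genes past the threshold (limma adjusted p under 0.05), lower to the left and higher to the right, for each list (number of measured genes in brackets) in the 5 comparisons. For the cytosolic ribosomal proteins the lower share is 45.1% in the combined comparison and at most 5.88% in the comparisons of a single factor.

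Ribosomal proteins that share a probe set with other transcripts were counted without naming a gene. There were 22 probe sets whose several symbols included 1 ribosomal protein, 20 of them together with a small nucleolar RNA, which often lies in an intron of such a gene. In a fit over all 70523 probe sets, 5 of the 22 were lower in doxycycline with hypoxia against vehicle with normoxia and 0 higher, beside 7.74% and 3.15% of all probe sets. All 22 differences were below 0, with a median of -0.26 against -0.06 over all probe sets. They share their signal with the other transcripts named on the same probe set, so no value is given for a single gene.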

How the data were processed

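Total RNA (250 ng per array) from 16 samples of A498 cells was hybridised by the study to 1-colour whole-transcript arrays. The authors deposited 1 table of log2 signals, made by RMA, which corrects background, normalizes quantiles across arrays and summarises probes by median polish. The submitters' processing notes name RMA and Transcriptome Analysis Console. Tool versions and a genome build were not given in the sources used here. Values above 16 exceed a plain 16-bit intensity, so a further transformation is possible, which would change the size of differences. The number of arrays limits the precision, since these files hold no counts.

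The table held 70523 probe sets and 0 columns of other samples. The platform annotation assigned a single symbol to 23781 of these (1 gene each) and several to 1543, leaving 45199 unnamed. Symbols were updated through human RefSeq genes (21497 by gene identifier, 2280 by symbol or synonym, 4 kept), and the brightest probe set per gene left 22411 genes. All 51 members had the same symbol before this update. No filter on low signal was applied, so all members entered.

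Arrays were grouped by their titles. A limma model (3.58.1, R 4.3.3) with 4 group means, moderated with an intensity trend, was fitted to all genes and all 16 arrays, tested two-sided and adjusted by Benjamini-Hochberg over 22411 genes with a threshold of 0.05. For the study in general the methods state a t-test or ANOVA. Members, gene lists and tests were chosen with earlier results of these data known. The rule named, in each comparison, up to 12 called members by smallest p or the 3 with the smallest p, for the interaction 2, the 3 brightest, dimmest and most variable members, the paralogs with their closest genes, RPLP1, RPL5 and RPL11 where measured, DGAT1 and DGAT2, and from each list up to 2 genes per direction. The steps were tested on simulated data. Alternatives were leaving out each array, a block for the replicate number, only genes above the median signal, the mean of probe sets, all probe sets, centred arrays, another quantile normalization, no trend, array weights, only the arrays compared and the methods' t-test. Leaving out both hypoxia arrays numbered 4, and giving results without vehicle hypoxia replicate 4 throughout, were chosen after seeing the data.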

Additional observations from a re-analysis of the deposited data

Results flagged for a closer look

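Of 108 sets of 4 arrays, from 26 named members and the median of all members in each group, 11 held an array far from the other 3, and chance flags about 1 in 20 such sets. On vehicle hypoxia replicate 4 this was so for RPL19 (16.82, the others 17.10 to 17.13), RPLP1 (9.82, the others 10.28 to 10.34), RPS19 (14.42, the others 15.13 to 15.23) and RPS27 (12.88, the others 13.33 to 13.37), each of them low. Doxycycline hypoxia replicate 4 was high in RPS19 (15.29, the others 14.86 to 14.88), RPS27 (13.53, the others 13.23 to 13.25) and the dim RPL10L (2.74, the others 2.64 to 2.65). In doxycycline normoxia replicate 3, RPL10L was low (2.51, the others 2.65 to 2.67) and RPS27L high (7.84, the others 7.63 to 7.64). RPS27 was low on vehicle normoxia replicate 2 (13.21, the others 13.35 to 13.37), and RPS27L was low on vehicle normoxia replicate 1 (7.19, the others 7.45 to 7.47).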

How the results depend on the processing

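Leaving out an array outside the groups compared cannot move a difference, so part of the alternatives had a fixed outcome for each comparison. The median difference of the members stayed below 0 in all 5 comparisons under 23 alternatives. It ran from -0.31 to -0.24 in the combined comparison, from -0.15 to -0.11 and from -0.24 to -0.08 for doxycycline in normoxia and hypoxia, and from -0.16 to -0.08 and from -0.17 to -0.12 for hypoxia with vehicle and with doxycycline. Counts of members called moved more. With each array left out, they were 16 to 34 in the combined comparison, 0 to 10 and 0 to 17 for doxycycline in normoxia and hypoxia, and 1 to 4 and 0 to 6 for hypoxia with vehicle and with doxycycline. With array weights the counts in this order were 42, 22, 30, 13 and 17, and with both hypoxia arrays numbered 4 left out (chosen after seeing the data) 38, 10, 23, 1 and 14. Among genes above the median signal, doxycycline called 7 members in normoxia and 2 in hypoxia, and hypoxia with vehicle 3. Over all probe sets doxycycline called 0 at either oxygen level. With only the arrays compared the counts for the single factors were 7, 0, 0 and 2. The methods' t-test called 0 for doxycycline in hypoxia, 0 for hypoxia with vehicle and 2 for hypoxia with doxycycline. Another quantile normalization called 2 and 1 for hypoxia with vehicle and with doxycycline, and no intensity trend called 2 for hypoxia with vehicle. The cause of these shifts was not tested, apart from the fewer genes or arrays that some settings use. The interaction called 0 members under all 25 alternatives tried. No difference of a named member changed sign. Of 725 values of named members under an alternative, 656 kept their side of the threshold, 44 lost it and 25 gained it.

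Replicate numbers are shared between groups in the labels, but same-numbered arrays did not deviate together: r over all genes ran from -0.83 to 0.54, above 0.1 in 8 of 24 pairs, and not every array correlated best with its own number. With the replicate block, 1 member was called for doxycycline in normoxia and 0 in hypoxia, and 19 in the combined comparison.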
